A study of Mus musculus with 4 samples.

Results

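The immunoglobulin constant genes Ighm, Ighd, Igha, Ighg1, Ighg2b, Ighg2c, Ighg3, Igkc and Iglc3 and the joining chain gene Jchain were measured in single liver mononuclear cells of C57BL/6 mice aged 8 to 10 weeks. They are 10 of the 31053 genes counted, and were picked by symbol. All 10 were listed in each of the 4 libraries. The Naïve library stands for mice without ConA, and whether they received a vehicle is not given in the sources used here. The ConA+Veh mice received concanavalin A (ConA), a plant lectin that activates T cells and injures the liver, and then vehicle. The ConA+TCDD and ConA+FICZ mice received ConA and then TCDD, a dioxin, or FICZ, a tryptophan derivative, both ligands of the aryl hydrocarbon receptor (AhR). Cells were taken 24 hours after ConA. Each condition is 1 library, and the number of mice in it and the dose of FICZ are not given in the sources used here, so no p-value is given and all intervals are 95% intervals for counting error only.

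An antibody pairs a heavy chain with a light chain, and the constant gene sets its class. A B cell that has not met antigen splices its long heavy chain transcript to both Ighm and Ighd, and displays IgM and IgD. Class switching then joins the variable segment to an Ighg, Igha or Ighe gene. Igkc encodes the kappa light chain, which most mouse B cells use, and the Iglc genes encode lambda chains. Jchain links the units of secreted IgM and IgA and is made by antibody-secreting cells. The liver holds B cells that arrive with the blood.

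In the GRCm38 (mm10) annotation the heavy chain genes lie side by side on the minus strand of chromosome 12. Ighm spans chr12:113418558-113422730, Ighd chr12:113406604-113416324, Ighg3 chr12:113356224-113361232, Ighg1 chr12:113325240-113330523, Ighg2b chr12:113302965-113307933, Ighg2c chr12:113285325-113288932 and Igha chr12:113254830-113260236. Igkc spans chr6:70726435-70726966 on the plus strand. Iglc3 spans chr16:19065230-19065681 and Jchain chr5:88519809-88527891, both on the minus strand.

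Because some of these genes are close copies, reads can be shared among them. The start of the first coding exon is shown for the lambda pair and for the IgG genes, 5′ to 3′ as transcribed. The lambda stretches are chr16:19198764-19198853 and chr16:19065592-19065681 on the minus strand, and capitals mark the 5 of 89 aligned bases at which they differ.
Iglc2: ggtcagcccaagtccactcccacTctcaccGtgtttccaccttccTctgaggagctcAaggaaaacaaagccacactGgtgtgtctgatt
Iglc3: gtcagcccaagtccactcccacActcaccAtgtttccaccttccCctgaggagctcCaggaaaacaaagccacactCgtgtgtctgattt
Over the whole coding exon Iglc2 and Iglc3 were identical at 303 of 315 aligned bases (96.2%), and 20 of 256 windows of 60 bases were shared exactly. Counts of Iglc3 are therefore uncertain against Iglc2. The stretches of the IgG genes, all on the minus strand, are chr12:113307844-113307933 for Ighg2b, chr12:113288843-113288932 for Ighg2c, chr12:113330434-113330523 for Ighg1 and chr12:113361143-113361232 for Ighg3. Capitals mark where Ighg2b and Ighg2c differ from each other (7 of 90 bases), and where Ighg1 and Ighg3 differ from Ighg2b (17 of 90 bases each).
Ighg2b: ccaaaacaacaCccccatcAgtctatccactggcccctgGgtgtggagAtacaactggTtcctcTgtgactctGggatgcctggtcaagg
Ighg2c: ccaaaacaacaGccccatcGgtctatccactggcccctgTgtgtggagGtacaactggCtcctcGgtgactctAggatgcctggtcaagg
Ighg1: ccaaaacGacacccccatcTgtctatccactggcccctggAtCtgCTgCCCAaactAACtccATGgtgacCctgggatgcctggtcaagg
Ighg3: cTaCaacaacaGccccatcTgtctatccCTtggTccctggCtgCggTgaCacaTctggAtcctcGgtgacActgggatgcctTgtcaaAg
No window of 60 bases was shared between any IgG pair in the first exon. Over the coding sequence, 36 of 948 windows of Ighg2b were found in Ighg2c, and no other IgG pair shared one. The single exon of Igkc begins at chr6:70726435-70726524 on the plus strand and the first exon of Ighm at chr12:113422641-113422730 on the minus strand, which are shown because most constant gene counts fell on these genes.
Igkc: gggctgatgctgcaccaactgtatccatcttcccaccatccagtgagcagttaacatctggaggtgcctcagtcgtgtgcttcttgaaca
Ighm: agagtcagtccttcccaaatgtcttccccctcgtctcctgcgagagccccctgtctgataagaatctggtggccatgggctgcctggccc

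A cell was taken as a B cell when its unique molecule counts (UMIs) of Cd79a, Cd79b and Ms4a1 summed to at least 3. This gave 1081 B cells of 2086 cells in Naïve, 827 of 2779 in ConA+Veh, 350 of 1880 in ConA+TCDD and 792 of 2555 in ConA+FICZ, together 3050 of 9300. Cells with a sum of 2, just outside the rule, numbered 12, 45, 48 and 32, and cells with a sum of 3 numbered 21, 26, 34 and 25, in the same order. As a measure of RNA from outside the cell, 471, 706, 602 and 490 T cells were taken, which held at least 2 UMIs of Cd3d, Cd3e and Cd3g and none of the B cell genes. B cell transcription factor Ebf1 was found in 81.7% to 95.6% of B cells and in 0.425% to 1.16% of T cells. B cells of the ConA libraries were deeper, with a median of 4398 UMIs in ConA+Veh, 4004 in ConA+TCDD and 3928 in ConA+FICZ against 2142 in Naïve. A Cd3 UMI was held by 2.04% of B cells in Naïve, 14.0% in ConA+Veh, 8.57% in ConA+TCDD and 6.44% in ConA+FICZ. Hepatocyte genes (Alb, Apoa1, Ttr) were found in 8.79%, 7.50%, 0.571% and 29.5% of B cells and in 8.49%, 7.37%, 1.16% and 30.4% of T cells. Neutrophil genes were found in 5.92%, 6.77%, 6.86% and 7.70% of B cells. Their level was 24.7, 512, 12.3 and 635 CPM (UMIs per 1000000) in B cells and 17.4, 4.78, 13.6 and 6.57 in T cells. B cells were not required to lack genes of other cell types, so mixed cells may be among them. Pairs of libraries shared between 4 and 15 cell barcodes.

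The IgM heavy chain gene Ighm was found, without thinning, in 95.1% to 98.1% of the B cells of a library and in 29.4% to 39.1% of the T cells. Levels are given as CPM, the gene's share of all UMIs of the B cells times 1000000. Its level was 2378 CPM in Naïve (2320 to 2436, 6553 UMIs), 1808 in ConA+Veh (1771 to 1845, 9268 UMIs), 1229 in ConA+TCDD (1182 to 1277, 2604 UMIs) and 1527 in ConA+FICZ (1493 to 1562, 7414 UMIs). The Naïve library was highest and ConA+TCDD lowest, and no intervals overlapped. A few cells held a large part of these counts. The 3 highest cells of ConA+Veh, with 959, 827 and 813 Ighm UMIs, held 2599 of its UMIs, whereas the highest cell of ConA+TCDD held 34. Without the B cells with at least 50 Jchain UMIs, 3 in ConA+Veh and 2 in ConA+FICZ, Ighm was at 1311 CPM in ConA+Veh, 1229 in ConA+TCDD and 1327 in ConA+FICZ. The median B cell held 5 Ighm UMIs in Naïve, 7 in ConA+Veh, 6 in ConA+TCDD and 6 in ConA+FICZ.

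**Figure D1:**
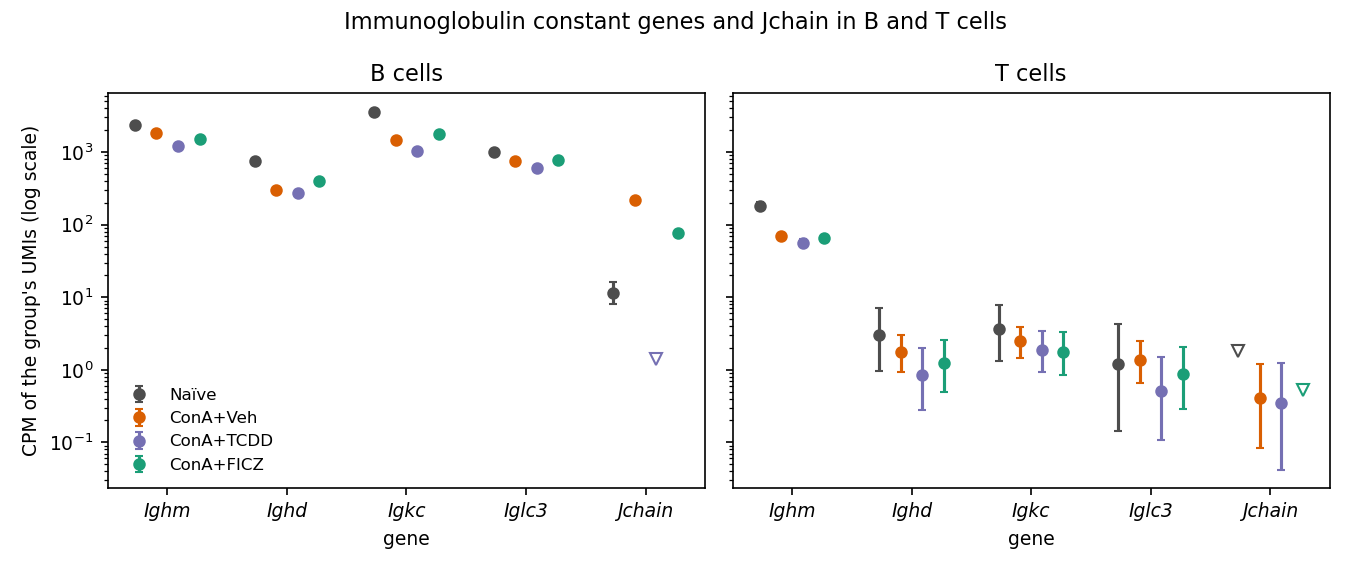
Levels of 5 genes in B cells (left) and T cells (right) of each library, in CPM on a log axis. Points are sums over the cells of a group, bars are exact 95% Poisson intervals, and open triangles stand at the level of 3 UMIs where none was counted. In T cells Ighm stands well above the other 4 genes.

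Ighd, the IgD heavy chain gene, was at 759 CPM in Naïve (726 to 792), 300.4 in ConA+Veh (286 to 316), 276 in ConA+TCDD (254 to 299) and 396 in ConA+FICZ (379 to 414). Naïve stood apart above the 3 ConA libraries, ConA+FICZ was above the other ConA libraries, and the intervals of ConA+Veh and ConA+TCDD overlapped. No single cell carried this gene, since the highest cells held between 11 and 16 UMIs. Per 100 UMIs of Ighm there were 31.9 of Ighd in Naïve (30.4 to 33.5), 16.6 in ConA+Veh (15.7 to 17.5), 22.4 in ConA+TCDD (20.5 to 24.5) and 26.0 in ConA+FICZ (24.7 to 27.3). This ratio takes in the few cells with very high Ighm, which held 1 Ighd UMI in all in ConA+Veh and none in ConA+FICZ. Without the B cells of at least 50 Jchain UMIs, Ighd and Ighm were at 303 and 1311 CPM in ConA+Veh. They were then at 399 and 1327 CPM in ConA+FICZ. ConA+TCDD had no such cell, at 276 and 1229 CPM. The ratio of ConA+Veh was then not below that of ConA+TCDD, so the order of these libraries rests on those cells.

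At equal depth the shares of B cells with a UMI showed the same split. Equal totals per cell make this a measure of the share of RNA, as CPM is. It therefore cannot tell fewer Ighd molecules per cell from more RNA of other genes. Every cell was thinned to 1000 UMIs, which left out 24 B cells of Naïve, 46 of ConA+Veh, 16 of ConA+TCDD and 24 of ConA+FICZ. Ighd was then found in 56.1% of B cells in Naïve (53.0 to 59.1), 29.7% in ConA+Veh (26.5 to 33.0), 29.0% in ConA+TCDD (24.2 to 34.2) and 38.4% in ConA+FICZ (35.0 to 42.0), against 0% to 0.444% of T cells. Without thinning it was found in 76.8%, 70.5%, 68.0% and 75.9%. Ighm was found in 87.9% of B cells in Naïve, 72.9% in ConA+Veh, 71.6% in ConA+TCDD and 74.0% in ConA+FICZ. Both genes together were found in 50.2% of the thinned B cells of Naïve, 22.9% of those of ConA+Veh, 23.7% of those of ConA+TCDD and 30.5% of those of ConA+FICZ. Ighd alone was found in 5.39% to 7.94% of B cells, a narrow range over the 4 libraries. Counted per B cell without thinning, Ighd averaged 1.93 UMIs in Naïve, 1.86 in ConA+Veh, 1.67 in ConA+TCDD and 2.43 in ConA+FICZ. By that count ConA+FICZ was above Naïve.

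**Figure D2:**
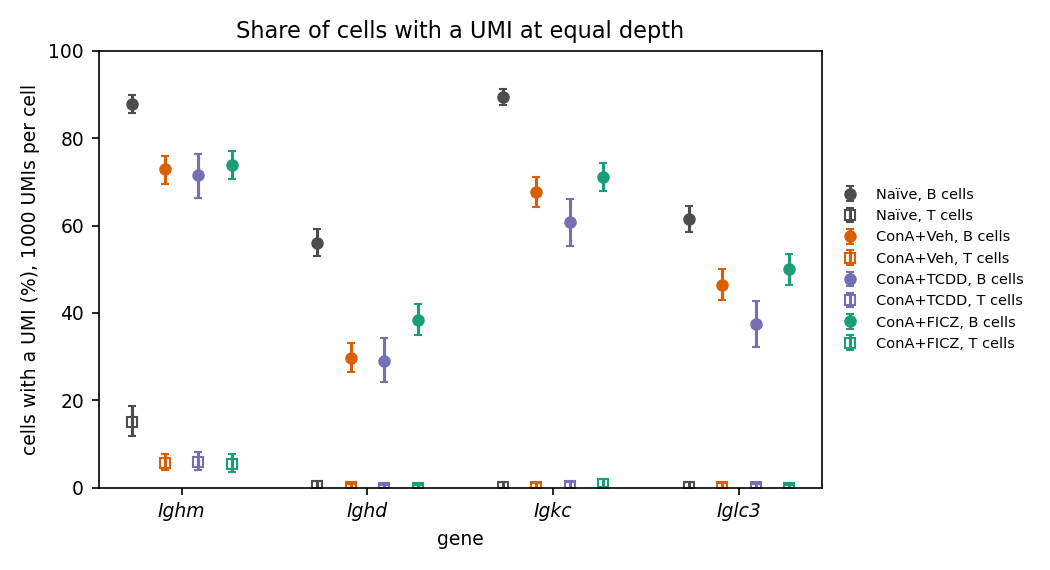
Share of B cells (filled circles) and T cells (open squares) with at least 1 UMI of each gene after every cell was thinned to 1000 UMIs, with exact 95% binomial intervals. For Ighd the share of B cells is 56.1% in Naïve and between 29.0% and 38.4% in the ConA libraries, and only Ighm is found in more than 1% of T cells.

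Ighm was also found in T cells, far above the level of the other members. It was at 182 CPM in T cells of Naïve (162 to 204), 69.6 in ConA+Veh (63.7 to 75.9), 56.2 in ConA+TCDD (50.3 to 62.7) and 66.0 in ConA+FICZ (59.5 to 73.1). These levels were 7.65%, 3.85%, 4.58% and 4.32% of those in the B cells of the same library. T cells of Naïve were shallower, with a median of 2699 UMIs against 6797 in ConA+Veh, 6181.5 in ConA+TCDD and 7784 in ConA+FICZ. Counted per T cell, Ighm averaged 0.643 UMIs in Naïve, 0.722 in ConA+Veh, 0.543 in ConA+TCDD and 0.759 in ConA+FICZ. In T cells Naïve was thus highest as a share of RNA but not in UMIs per cell. Igkc in T cells was 0.10% to 0.182% of its level in B cells, Iglc3 0.0844% to 0.179% and Ighd 0.312% to 0.591%. There were 150 Igkc UMIs per 100 Ighm UMIs in B cells of Naïve, 80.1 in ConA+Veh, 84.6 in ConA+TCDD and 116 in ConA+FICZ, and 1.98, 3.53, 3.36 and 2.69 in T cells. The B cell values take in the few cells with very high Ighm. Without the B cells of at least 50 Jchain UMIs, Igkc and Ighm were at 1180 and 1311 CPM in ConA+Veh. In ConA+TCDD they were at 1039 and 1229 CPM, so ConA+Veh was then not below ConA+TCDD in this ratio.

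The Ighm UMIs of T cells came almost without variable segments. Over all 4 libraries, T cells held 1512 UMIs of Ighm and 25 of all Ighv segments, where B cells held 25839 and 25444. They were spread over 184 T cells in Naïve, 256 in ConA+Veh, 177 in ConA+TCDD and 176 in ConA+FICZ, with at most 13 UMIs in a cell. Between 88.2% and 93.9% of them lay in T cells with no UMI of a light chain constant gene or of any variable segment. After thinning to 1000 UMIs, 15.1% of T cells held Ighm in Naïve (11.9 to 18.8), 5.68% in ConA+Veh (4.07 to 7.68), 5.96% in ConA+TCDD (4.19 to 8.20) and 5.39% in ConA+FICZ (3.55 to 7.80). Transcripts of an unrearranged Ighm gene, which carry no variable segment, are known from T cells, and their part in these counts was not tested. Cells with NK markers held Ighm at 134 CPM in Naïve, 41.4 in ConA+Veh, 56.4 in ConA+TCDD and 63.9 in ConA+FICZ, again with Naïve highest, although its interval (90.5 to 191) overlapped that of ConA+FICZ (43.1 to 91.2).

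Cells with at least 2 UMIs of Siglech, a gene of plasmacytoid dendritic cells, and no B cell gene held Ighm and Iglc3 as well. They were few, 14 in Naïve, 17 in ConA+Veh, 7 in ConA+TCDD and 7 in ConA+FICZ. Ighm was at 961 CPM in Naïve (692 to 1299), 833 in ConA+Veh (627 to 1084), 750 in ConA+TCDD (470 to 1135) and 1280 in ConA+FICZ (851 to 1850), and all 4 intervals overlapped. Iglc3 was at 389, 757, 784 and 731 CPM in these cells. The 45 cells together held 147 UMIs of Ighm, 106 of Iglc3, 29 of Igkc, 18 of Iglc2, none of Ighd, and 1 of Ighv, 5 of Igkv and 1 of Iglv segments. There were 589 Iglc3 UMIs per 100 of its near copy Iglc2 in these cells (355 to 1032), where B cells held 93.5. Of the 18 Iglc2 UMIs, 13 came from ConA+Veh and 11 from 1 cell of it, and the ratio was 1120 per 100 without that library (56 to 5 UMIs) and 1286 without that cell (90 to 7 UMIs). The C1q+, neutrophil and endothelial groups held between 1 and 28 UMIs of Ighm per library.

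**Figure D3:**
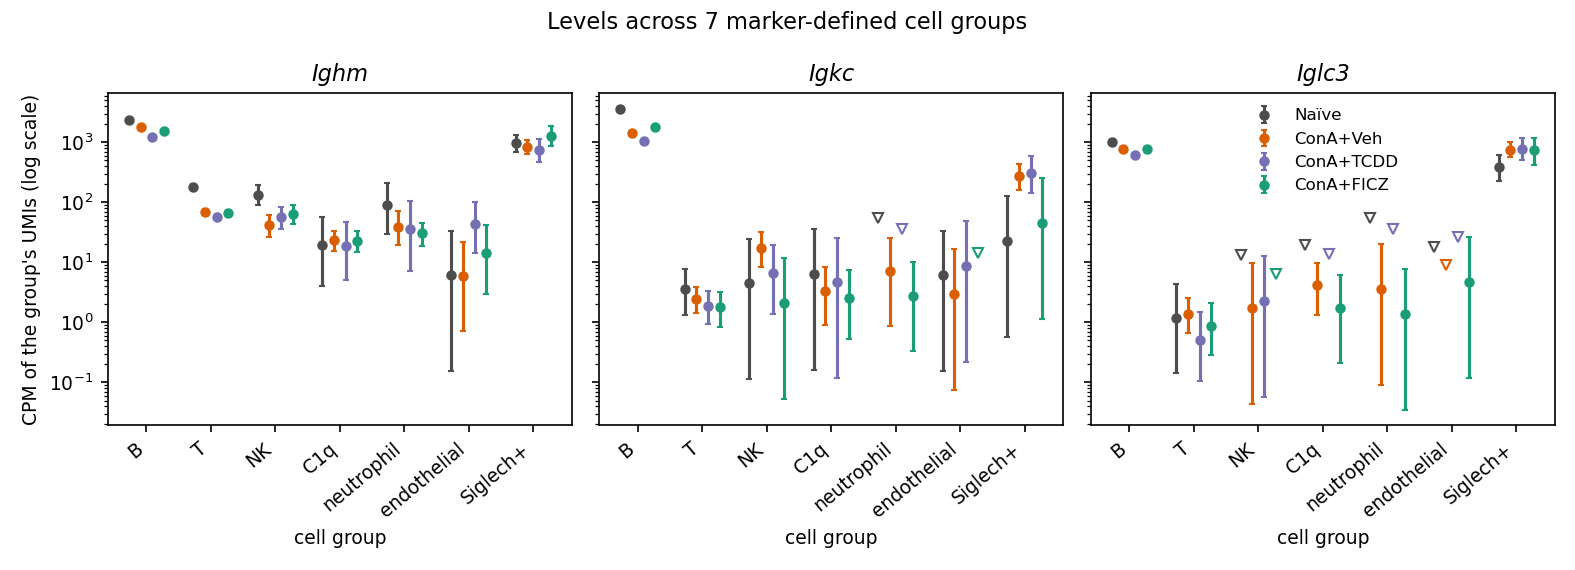
Levels of Ighm, Igkc and Iglc3 in 7 cell groups set by marker genes, by library, in CPM on a log axis with exact 95% Poisson intervals. Open triangles stand at the level of 3 UMIs where none was counted. Ighm and Iglc3 are high in both B cells and Siglech+ cells, while Igkc is lower in the Siglech+ cells than in B cells of the same library.

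Igkc, the kappa constant gene, was at 3566 CPM in B cells of Naïve (3496 to 3637), 1447 in ConA+Veh (1415 to 1481), 1039 in ConA+TCDD (996 to 1084) and 1769 in ConA+FICZ (1732 to 1807). None of these intervals overlapped, and the order was the same without the cells of at least 50 Jchain UMIs, where ConA+Veh was at 1180 and ConA+FICZ at 1615 CPM. Counted per B cell, Igkc averaged 9.09 UMIs in Naïve, 8.97 in ConA+Veh, 6.29 in ConA+TCDD and 10.8 in ConA+FICZ. By that count Naïve was not highest. Iglc3 varied less, at 1001 CPM in Naïve (964 to 1039), 762 in ConA+Veh (739 to 787), 611 in ConA+TCDD (578 to 645) and 772 in ConA+FICZ (747 to 797), and here the intervals of ConA+Veh and ConA+FICZ overlapped. The other lambda genes were at 1425, 748, 598 and 719 CPM for Iglc2, and at 276, 92.3, 63.7 and 133 CPM for Iglc1. Iglc4 had between 0 and 3 UMIs in B cells of a library and Ighe had none.

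Mature B cells keep 1 light chain class, but the constant genes did not separate the cells. Among B cells with at least 5 UMIs of Igkc and the Iglc genes, 5.50% in Naïve were kappa, with at least 90% of these UMIs on Igkc, and 3.66% were lambda. Kappa cells made up 3.59% in ConA+Veh, 4.82% in ConA+TCDD and 7.16% in ConA+FICZ, with lambda cells at 4.60%, 6.83% and 3.86%. Mixed cells made up 90.8% of 1037 cells in Naïve, 91.8% of 696 in ConA+Veh, 88.4% of 249 in ConA+TCDD and 89.0% of 726 in ConA+FICZ. The variable segments, a measure added after these values had been seen, did separate them. Among B cells with at least 5 UMIs of Igkv and Iglv, kappa cells made up 87.9% of 948 in Naïve, 90.9% of 773 in ConA+Veh, 92.0% of 286 in ConA+TCDD and 91.8% of 681 in ConA+FICZ, and lambda cells 3.90%, 4.27%, 5.59% and 2.79%.

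Igkc followed the variable segments and Iglc3 did not. In cells with kappa variable segments Igkc was at 3699 CPM in Naïve, 1553 in ConA+Veh, 1163 in ConA+TCDD and 1893 in ConA+FICZ, and in the cells with lambda segments (37, 33, 16 and 19 cells) at 410, 187, 114 and 143 CPM. Iglc3 was at 1037, 804, 686 and 850 CPM in the kappa cells and at 820, 560, 253 and 456 CPM in the lambda cells. It was lower in the lambda cells in all 4 libraries. The intervals overlapped in Naïve (995 to 1080 in kappa cells, 632 to 1048 in lambda cells) but not in the ConA libraries. Iglc3 was found, without thinning, in 78.7% to 87.8% of the kappa cells and 43.8% to 62.2% of the lambda cells. Iglc1 went the other way, with 239, 78.9, 61.2 and 120 CPM in kappa cells and 1077, 306, 253 and 592 CPM in lambda cells. Iglc2, the near copy of Iglc3, was also high in kappa cells, at 1391, 751, 631 and 764 CPM. In lambda cells Iglc2 was at 1871, 772, 722 and 830 CPM, with intervals that overlapped those of kappa cells in the ConA libraries but not in Naïve. Reads shared between Iglc2 and Iglc3 were not told apart. In T cells of the same libraries Iglc3 was at 0.516 to 1.37 CPM.

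**Figure D4:**
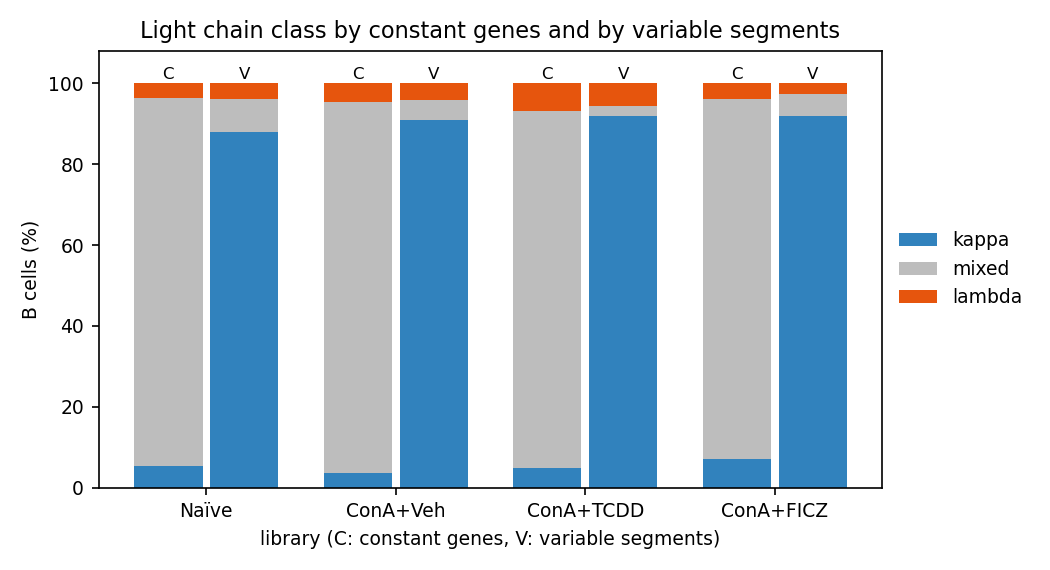
Share of B cells classed as kappa, mixed or lambda from the constant genes (C) and from the variable segments (V), by library, each class needing at least 5 UMIs and at least 90% of 1 kind. Mixed cells make up 88.4% to 91.8% by the constant genes and 2.45% to 8.23% by the variable segments.

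Jchain was carried by a handful of cells. In B cells it was at 11.6 CPM in Naïve (7.94 to 16.4, 32 UMIs), 219 in ConA+Veh (206 to 232, 1121 UMIs) and 77.0 in ConA+FICZ (69.4 to 85.3, 374 UMIs), and no UMI was counted in ConA+TCDD, where 3 UMIs would give 1.42 CPM. The UMIs lay in 3 B cells of Naïve, 6 of ConA+Veh and 4 of ConA+FICZ. The highest cell of ConA+Veh held 648 and the next 397 and 73, and the highest of ConA+FICZ held 299 and the next 67. At least 50 Jchain UMIs were thus held by 3 of 827 B cells in ConA+Veh (0.363%, 0.0749 to 1.06), 2 of 792 in ConA+FICZ (0.253%, 0.0306 to 0.909), 0 of 1081 in Naïve and 0 of 350 in ConA+TCDD. A count of 0, with 3 cells of the total taken as its limit, allows up to 0.278% and 0.857%. A difference in the share of such cells between ConA+TCDD and ConA+Veh was not detectable with this number of cells.

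The cells high in Jchain were of the IgM type. The 3 in ConA+Veh held 959, 827 and 813 UMIs of Ighm, 478, 308 and 634 of Igkc, and 0, 1 and 0 of Ighd. The 2 in ConA+FICZ held 586 and 423 UMIs of Ighm, 599 and 197 of Igkc, and none of Ighd. Immunoglobulin genes and segments made up 53.7%, 45.0% and 63.5% of all UMIs in the cells of ConA+Veh and 37.1% and 42.8% in those of ConA+FICZ, where the median B cell held 1.40% and 1.25%. All 5 carried Xbp1, the transcription factor of the secretory programme (62, 14, 14, 64 and 6 UMIs), Mzb1, a chaperone of IgM assembly (26, 6, 10, 152 and 33 UMIs), and Txndc5 (29, 23, 15, 37 and 12 UMIs). The plasma cell surface gene Sdc1 was found in 1 of them, with 5 UMIs. The rest of the 8 plasma cell markers were low or absent in some of these cells. In the same order, Derl3 had 5, 2, 0, 12 and 2 UMIs and Prdm1 1, 2, 1, 1 and 0. Fkbp11 had 1, 0, 0, 14 and 1 UMIs and Tnfrsf17 2, 0, 0, 0 and 0. The other cells that carried at least 4 of 8 plasma cell markers, Mzb1 among them, mostly had no Jchain: of all 4 such cells in Naïve, 16 in ConA+Veh, 3 in ConA+TCDD and 19 in ConA+FICZ, Jchain was found in 1, 4, 0 and 3. The cells with these markers were deep, with medians of 23507, 14205.5, 23916 and 11949 UMIs, against 2142, 4398, 4004 and 3928 in B cells. The marker rule takes no account of depth, so these cells are not taken as plasma cells. Outside B cells, 12 Jchain UMIs lay in 1 Siglech+ cell of ConA+Veh, and the 2 Jchain UMIs of the ConA+TCDD library lay in 1 T cell.

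**Figure D5:**
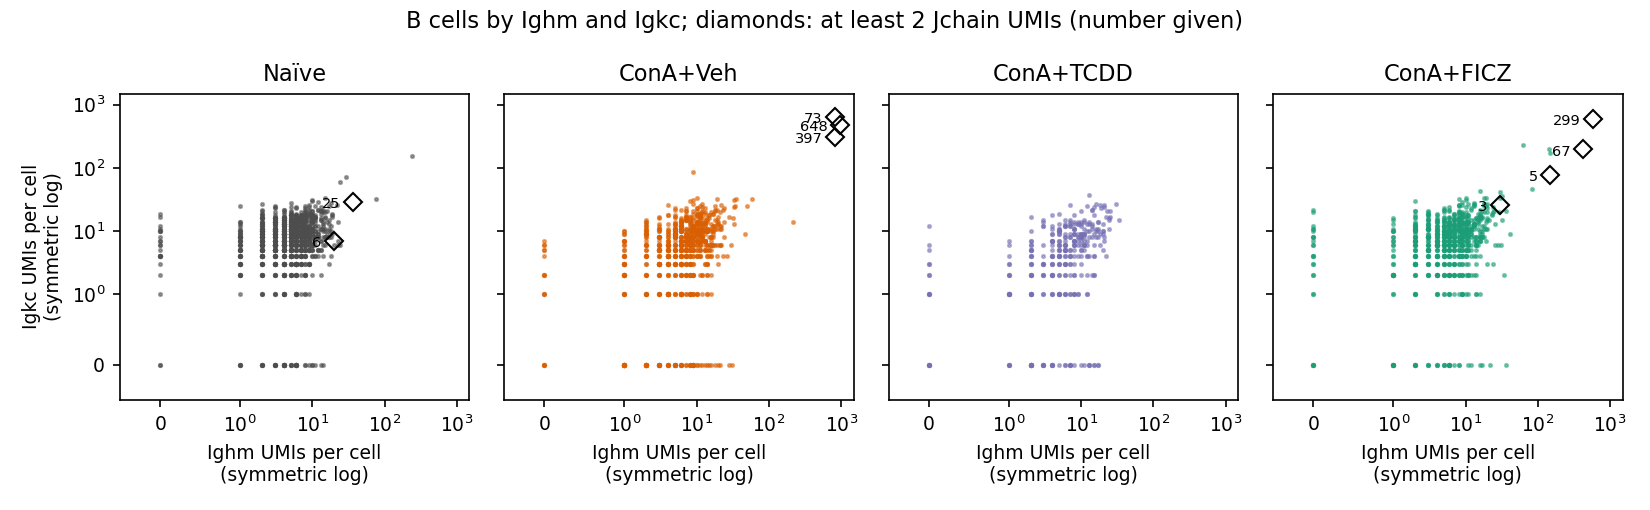
UMIs of Ighm (horizontal) and Igkc (vertical) in each B cell, by library, on symmetric log axes that include 0. Diamonds mark B cells with at least 2 Jchain UMIs, with their number beside them. The cells with 67 to 648 Jchain UMIs stand at the upper right of ConA+Veh and ConA+FICZ, and ConA+TCDD has no diamond.

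Switched heavy chains were rarely counted. Ighg1, the IgG1 gene, had no UMI in any of the 9300 cells. Ighg2c had 1 UMI in Naïve, 2 in ConA+Veh, 1 in ConA+TCDD and 1 in ConA+FICZ. Ighg2b had 0, 6, 3 and 11 UMIs, in at most 10 cells of a library. Ighg3 had 22, 9, 1 and 25 UMIs, and 2 cells held 15 of them in Naïve and 15 of them in ConA+FICZ. These 4 cells, with 9, 6, 10 and 5 UMIs, were the only ones with at least 5 UMIs of a switched gene, passed the B cell rule and held no Ighd. Such cells were 2 of 2086 in Naïve (0.0959%, 0.0116 to 0.346) and 2 of 2555 in ConA+FICZ (0.0783%, 0.00948 to 0.282). None was found among 2779 cells of ConA+Veh and 1880 of ConA+TCDD, which with a limit of 3 cells allows up to 0.108% and 0.160%. Of the cells with at least 5 UMIs, Ighm was also held by 1 of 2 in Naïve and by 2 of 2 in ConA+FICZ. The cell of ConA+FICZ with 10 Ighg3 UMIs also carried at least 4 of 8 plasma cell markers.

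Igha, the IgA gene, had 28 UMIs in Naïve, 5 in ConA+Veh, 3 in ConA+TCDD and 18 in ConA+FICZ, every one in a cell that passed the B cell rule. They were scattered, with at most 3 UMIs in a cell. Of the 26 cells with Igha in Naïve 25 also held Ighm and 19 held Ighd, and of the 15 in ConA+FICZ 14 and 13 did. In B cells, the switched genes made up 0.587% of heavy chain constant UMIs in Naïve (0.437 to 0.770), 0.203% in ConA+Veh (0.127 to 0.307), 0.25% in ConA+TCDD (0.108 to 0.493) and 0.564% in ConA+FICZ (0.423 to 0.738). Naïve and ConA+FICZ lay above ConA+Veh without overlap, whereas the interval of ConA+TCDD overlapped all others. These intervals take UMIs as independent, but a few cells weigh on them. In Naïve 2 cells held 15 of the 51 switched UMIs, and in ConA+FICZ 2 cells held 15 of 53. In ConA+Veh 3 B cells held 2599 of the 9268 Ighm UMIs, which lowers its share. The separation was not recomputed without these cells and may rest on them.

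The comparison of ConA+Veh with Naïve asks how these genes differ after ConA. A gene was compared where the B cells of both libraries together held at least 100 UMIs, which 5 of the 10 members did: Ighm, Ighd, Igkc, Iglc3 and Jchain. Of these, 1 was at least 2-fold higher in ConA+Veh (Jchain), where 7.21% of the 6324 genes compared were, and 2 were at least 2-fold lower (Ighd and Igkc), where 14.5% were. The median log2 ratio of the 5 was -0.40, beside -0.19 over all genes compared. The log2 ratio was -1.34 for Ighd (-1.43 to -1.24), -1.30 for Igkc (-1.34 to -1.26), -0.40 for Ighm (-0.44 to -0.35), -0.39 for Iglc3 (-0.46 to -0.32) and 4.24 for Jchain (3.73 to 4.79). These are shares of a cell's RNA, and the direction turned for Ighm and Iglc3 when UMIs were counted per cell. A B cell of Naïve held on average 9.09 UMIs of Igkc, 1.93 of Ighd, 6.06 of Ighm and 2.55 of Iglc3, and a B cell of ConA+Veh 8.97, 1.86, 11.2 and 4.73, with a deeper library. Among B cells with 1500 to 4000 UMIs only, the log2 ratio was -1.0 for Igkc, at the 2-fold limit, and -0.87 for Ighd, so that Ighd was no longer past 2-fold. Jchain reached the limit of 100 UMIs through ConA+Veh, with 1121 UMIs against 32 in Naïve. Its UMIs lay in 6 B cells of ConA+Veh and 3 of Naïve. Leaving out the 5 B cells of each library with the most Jchain therefore left too few UMIs to compare.

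Between ConA+TCDD and ConA+Veh, which asks about TCDD after ConA, no member was at least 2-fold higher (0.244% of 5728 genes compared were) and 1 was at least 2-fold lower, Jchain (1.29% were). Jchain was 154-fold lower with ConA+TCDD set at 3 UMIs over its B cells, a value set by this floor and not a bound. The interval of its log2 ratio ended at -6.97, for counting error only. Jchain passed the limit on UMIs only through ConA+Veh, with 1121 UMIs in B cells against 0 in ConA+TCDD. The difference rests on 3 cells of ConA+Veh. Cells that rare could be missed among the 350 B cells of ConA+TCDD, so no conclusion is drawn from this call. The log2 ratio was -0.56 for Ighm (-0.62 to -0.49), -0.48 for Igkc (-0.55 to -0.41), -0.32 for Iglc3 (-0.41 to -0.23) and -0.12 for Ighd (-0.26 to 0.01). Without the 5 B cells of each library that held the most of the gene, these were -0.06 for Ighm, -0.21 for Igkc, -0.37 for Iglc3 and -0.18 for Ighd. Among B cells with 1500 to 4000 UMIs the log2 ratio of Ighm was 0.07.

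ConA+FICZ was set against the same ConA+Veh library, so both comparisons share it. No member was at least 2-fold higher (0.877% of 6727 genes were) and 1 was at least 2-fold lower, again Jchain (0.877% were), with a log2 ratio of -1.51 (-1.68 to -1.34) that rests on the highest cells. The log2 ratio was 0.40 for Ighd (0.30 to 0.50), 0.29 for Igkc (0.24 to 0.33), 0.02 for Iglc3 (-0.05 to 0.08) and -0.24 for Ighm (-0.29 to -0.20). For Ighm it was -0.03 without the 5 highest B cells and 0.29 among B cells with 1500 to 4000 UMIs. Side by side, and with the FICZ dose unknown, Ighd and Igkc stood at 276 and 1039 CPM in ConA+TCDD and at 396 and 1769 CPM in ConA+FICZ.

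Genes that act with the members were described from fixed lists. Of 18 genes of the B cell receptor and its co-receptors, all 18 were compared, and 6 were at least 2-fold lower in ConA+Veh than in Naïve and none higher, with a median log2 ratio of -0.78, where 14.5% of all genes compared were lower and 7.21% higher with a median of -0.19. The lowest ratio was that of Fcer2a, the low-affinity IgE receptor CD23, from 463 to 36.7 CPM (log2 ratio -3.66), followed by the complement receptor gene Cr2 (82.7 to 21.3 CPM, -1.96). Fcgr2b, the inhibitory IgG receptor, went from 129 to 218 CPM (0.75) and Cd72 from 201 to 329 CPM (0.71). Of 13 factors of immunoglobulin transcription and splicing, 11 were compared, and 3 were lower and none higher, against the same 14.5% and 7.21% of all genes, led by Ebf1 (1619 to 467 CPM, -1.79) and Tcf3 (142 to 53.1 CPM, -1.42). The 2 highest ratios of this list were below 0, -0.32 for Ikzf1 and -0.39 for Pou2af1.

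Of 15 genes of the secretory programme of plasma cells, 10 were compared in ConA+Veh over Naïve, and 1 was higher and 1 lower, near the shares over all genes of 7.21% and 14.5%. The endoplasmic reticulum gene Creld2 was higher, just past 2-fold (31.2 to 62.4 CPM), and no longer past it without the 3 B cells of at least 50 Jchain UMIs (log2 ratio 0.95), followed by the disulfide isomerase gene Pdia4 (75.8 to 129 CPM), and the transcription factor gene Irf4 was lower (181 to 41.6 CPM, -2.12), followed by Txndc5 (121 to 78.6 CPM). Of 12 genes of class switching, 8 were compared and 2 were higher, where 7.21% of all genes were, the DNA repair genes Apex1 (35.6 to 97.0 CPM, 1.45) and Ung (12.0 to 32.0 CPM, 1.42). Trp53bp1 (18.1 to 10.3 CPM, -0.81) and Parp1 (199.6 to 132 CPM, -0.59) were the lowest. Among the remaining constant genes Iglc1 was lower (log2 ratio -1.58) and Iglc2 had a ratio of -0.93.

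Among the listed genes with at least 100 UMIs, none was past 2-fold in either direction in ConA+TCDD or in ConA+FICZ against ConA+Veh. Over all genes compared, 0.244% were higher and 1.29% lower in ConA+TCDD, and 0.877% in each direction in ConA+FICZ. For lists this short, a count of none is near those shares. Genes under this limit were not compared. In ConA+TCDD the lowest ratios were those of Xbp1 (73.7 to 41.1 CPM, -0.84) and Txndc5 (78.6 to 46.3 CPM, -0.77) in the secretory list, which were -0.46 and -0.51 without the 3 B cells of ConA+Veh with at least 50 Jchain UMIs, Fcer2a (-0.64) and Cr2 (-0.59) in the receptor list, Pou2af1 (-0.29) and Spib (-0.26) among the factors, and Parp1 (-0.15) and Batf (0.07) in class switching. The highest in each list were Irf4 (0.20) and Slamf7 (0.04), Cd81 (0.01) and Blnk (194 CPM in both), Bach2 (0.26) and Ikzf1 (0.22), and Rif1 (0.43) and Ung (0.27). In ConA+FICZ the ratios of the receptor list ran from -0.44 for Fcrla and -0.42 for Fcer2a to 0.15 for Ptpn6 and 0.38 for Cd22. Those of the factors ran from -0.45 for Pax5 and -0.31 for Ikzf3 to 0.23 for Pou2af1 and 0.31 for Pou2f2. The secretory list ran from -0.31 for Slamf7 and -0.28 for Hspa5 to 0.06 for Derl3 and 0.18 for Irf4, and the switching list from -0.19 for Ung to 0.29 for Msh6 and 0.44 for Trp53bp1.

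The genes most like the members were sought over 22 profiles, the groups of at least 20 cells in the 4 libraries, by Pearson's r of log2(CPM + 10) over 9086 genes. Groups of a library share its depth and its free RNA, and B cells were chosen by Cd79a and Cd79b. Among the nearest to Igkc were Spib (r = 0.995), Pax5, Cd79a and Cd79b (0.992). Nearest to Ighd were Fcmr, the IgM Fc receptor gene (0.994), Cd79a, Gm30211, Chst3 and Cd79b (0.983). Ighm, which T cells and NK cells also held, was less close to any gene, with Cxcr5 (0.933), Pou2af1, Ly6d, Fcmr and Hvcn1 (0.916). Jchain was closest to Ccr6, at 0.778, followed by Bfsp2, Tnfrsf13c, Fcrl5 and Mef2b (0.763). The Jchain profile rests on few cells. Its UMIs in B cells lay in 3 cells of Naïve, 6 of ConA+Veh, 0 of ConA+TCDD and 4 of ConA+FICZ.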

How the data were processed

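Liver mononuclear cells of 4 conditions, 1 library each, were processed by the authors with the 10x Genomics 5′ assay. Cell Ranger 3.0.2 was run by the authors on the mm10 build. The matrices they deposited hold unnormalized UMI counts. Total UMIs per library were 5952445 in Naïve, 19252211 in ConA+Veh, 12077209 in ConA+TCDD and 16017797 in ConA+FICZ, and the shallowest cells held 500 or 501 UMIs.

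For each group of cells, the summed counts of a gene were divided by the group's total. Sums have exact Poisson intervals, shares exact (Clopper-Pearson) binomial intervals, and ratios exact binomial intervals conditional on the total of both sums, all at 95% and for counting error only. A sum of 0 was set to a floor of 3 UMIs over the group, and the limit of a share of 0 is 3 cells of the total, not the bound of the exact interval. No doublet caller was run and no cell was left out. Thinning drew 1000 UMIs per cell without replacement. The fold rule was run on simulated data with 200 genes changed 4-fold. Of these, 167, 191 and 178 were still compared in the 3 comparisons, and all were recovered. A 2-fold rule makes this outcome all but certain for a 4-fold change. The run therefore cannot show how the rule does near 2-fold, or where a few cells hold the counts. Python 3.11.15, numpy 2.4.6, scipy 1.17.1 and Biopython were used. Sequences and positions come from GENCODE transcripts of GRCm38.

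The members, lists and rules were chosen with earlier results of these data known. All 10 members are named, with the 2 largest rises and falls of each list. The named genes also include the 5 nearest in pattern to Ighm, Ighd, Igkc and Jchain. Values of 2 listed genes are not reported here. Cells of other groups held no UMI of Cd79a, Cd79b or Ms4a1. Alternatives changed the B cell rule, the totals, the depth, the filter on cells and the cells left out. Protein sequences were not used here.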

Additional observations from a re-analysis of the deposited data

How the results depend on the processing

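Leaving out the 5 B cells with the most UMIs of the gene, or the B cells with 4 of 8 plasma cell markers, brought the members higher in ConA+Veh than in Naïve from 1 to 0, and those lower than ConA+Veh from 1 to 0 in both ConA+TCDD and ConA+FICZ. Too few Jchain UMIs were left to compare. The same held for 2 alternatives added after the data were seen, B cells of 1500 to 4000 UMIs and B cells with under 50 Jchain UMIs. Members lower in ConA+Veh than in Naïve went from 2 to 1 (Igkc) in B cells of 1500 to 4000 UMIs, and to 0 with mean UMIs per cell. Over all alternatives, 32 of 36 recomputed counts of higher members and 26 of 36 of lower members were unchanged, including under stricter B cell rules, without B cells holding Cd3, with other totals, with a filter on cells and with the level in T cells subtracted. Most unchanged counts of higher members were 0 staying 0, because none was higher in ConA+TCDD or ConA+FICZ than in ConA+Veh. Of 168 recomputed log2 ratios 70 lay outside the counting interval, and no ratio past 2-fold changed sign. Jchain could be compared in only 8 alternatives. Ratios within 2-fold did change sign. That of Ighm kept its sign in 11 of 12 alternatives in ConA+Veh over Naïve, 11 in ConA+TCDD and 9 in ConA+FICZ over ConA+Veh. The sign also changed for Iglc3 in ConA+Veh over Naïve and in ConA+FICZ over ConA+Veh, and for Ighd in ConA+TCDD over ConA+Veh. All 48 recomputed levels in T cells, as a percentage of B cells, stayed within their intervals. Shares of B cells with a UMI, at other depths of thinning or none, lay outside their intervals in 40 of 80 recomputed values. Light chain class shares, with other limits or by variable segments, did so in 21 of 36. With at least 75% of light chain UMIs of 1 kind, mixed cells made up 60.3% to 68.1% of the B cells classed. At least 10 UMIs of a switched gene were held by 1 cell, in ConA+FICZ. Also added after the data were seen, leaving out the B cells with at least 50 Jchain UMIs ended 1 call in the gene lists, Creld2 in ConA+Veh over Naïve. No paired analysis was possible because each condition has 1 library. With 350 B cells in ConA+TCDD, cells as rare as those high in Jchain could be missed.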
